A study of Mus musculus with 16 samples.

Results

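The genes described here encode 8 proteins that set the resting excitability of neurons, namely the pacemaker channel subunit Hcn2 and its auxiliary subunit Pex5l, the M-type channel subunit Kcnq3, the G protein-gated inward rectifier (GIRK) subunits Kcnj3, Kcnj6 and Kcnj9, and the two-pore leak channels Kcnk1 and Kcnk2. They were chosen by symbol, as channels known to act near the resting potential of CA1 pyramidal cells, and they are 8 of the 46403 gene symbols in the deposited tables. All 8 passed the filter on low counts. RNA sequencing was carried out on the CA1 subfield of the hippocampus of Fmr1-KO mice (8 libraries) and WT mice (8 libraries). The WT strain is given as C57BL/6, no other allele is named, and neither age nor littermate status is given in the labels. Fmr1 encodes FMRP, an RNA-binding protein whose loss underlies fragile X syndrome. Every mouse of both genotypes had served as a yoked control in an active place avoidance task, and the study asked which CA1 transcripts differ when Fmr1 is lost.

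A neuron at rest is held by currents that are open near its resting potential. HCN channels open on hyperpolarization and pass a depolarizing cation current, which in CA1 pyramidal cells is densest in the distal dendrite. M-type potassium channels, opened by slight depolarization and closed by muscarinic receptor signalling, limit repetitive firing. GIRK channels open when Gi/o-coupled receptors, such as those for GABA, adenosine and serotonin, release G protein beta-gamma subunits, and two-pore channels carry background potassium current.

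The members differed in level per kilobase of transcript by more than 10-fold in both genotypes. Between the genotypes, the fold change that edgeR fitted to the counts of a member was at most 1.31-fold in either direction. None of the 8 passed an adjusted p of 0.05 between Fmr1-KO and WT by edgeR's quasi-likelihood test with Benjamini-Hochberg adjustment over 11515 genes, where 2 genes (0.0174%) passed. Their adjusted p-values lay between 0.529 and 0.896. At an unadjusted p under 0.05 there were 4 members, Pex5l and Kcnj9 with higher means in Fmr1-KO and Kcnk1 and Kcnk2 with lower means, while 7.89% of all genes tested reached that level. The median log2 fold change of the members was 0.21, with 5 above 0 and 3 below, against −0.012 over all genes tested, with 5538 above 0 and 5977 below. The libraries of the genotypes overlapped for all 8 members, and 0.0434% of genes tested did not overlap.

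Depth was low. Each library carries its own combination of a number and a letter in the labels, which do not say that each is a separate animal, so p-values measure the spread between libraries, which may be technical in part. Fmr1-KO libraries held 1480966 to 2979481 estimated counts and 6 WT libraries held 2126632 to 3275003, while WT replicates 3 and 6 held 878484 and 515103. Because the last pair also gave 10.3% and 31.6% of their counts to their 10 largest genes, against 3.73% to 6.06% in the other 14 libraries, the main results are also given without them. Fmr1 stood at 22.2 ± 7.08 CPM in Fmr1-KO, against 58.1 ± 19.4 CPM in WT (SD, n = 8 each), with all Fmr1-KO libraries below all WT libraries (adjusted p = 0.0112 by edgeR). CPM here are counts scaled to a common library size after TMM normalization. The 8 CA1 pyramidal markers, among them Camk2a, Wfs1 and Fibcd1, were all detected and summed to 8535 ± 398 CPM in Fmr1-KO, against 8414 ± 750 CPM in WT, and those of dentate granule cells to 170.1 ± 34.7 CPM in Fmr1-KO, against 168 ± 31.3 CPM in WT, nearly all of it from Lct. Interneuron markers summed to 274 ± 77.9 CPM in Fmr1-KO and 299 ± 59.7 in WT, and CA3 markers to 34.4 ± 10.6 in Fmr1-KO and 39.3 ± 11.04 in WT. CA2 markers summed to 153 ± 19.2 CPM in Fmr1-KO and 132 ± 18.6 in WT, nearly all of it from Rgs14 (151 and 130 CPM). Choroid plexus markers, 1 of 3 at 0 throughout, summed to 74.0 ± 10.9 CPM in Fmr1-KO and 66.7 ± 22.8 in WT. Nearly all of that sum came from Kl, while Ttr averaged 0.17 CPM in Fmr1-KO and 0 in WT. Oligodendrocyte precursor markers summed to 35.9 ± 13.5 CPM in Fmr1-KO and 53.1 ± 30.3 in WT.

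**Figure D1:**
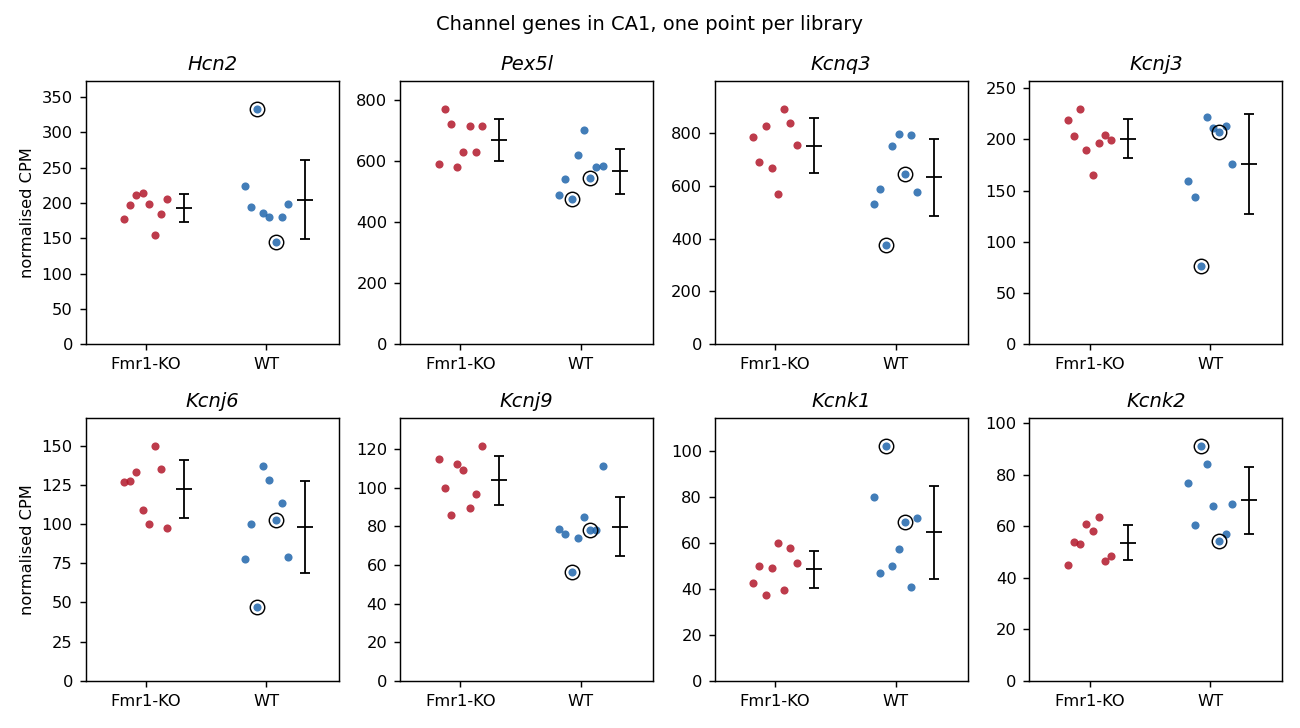
Normalised CPM of each of the 8 genes in every library, Fmr1-KO in red on the left and WT in blue on the right of each panel, with mean ± SD beside the points (n = 8 each). Black rings mark WT replicates 3 and 6. The genotypes overlap in every panel. All 8 Fmr1-KO points of Pex5l and Kcnj9 lie above the WT median and all 8 of Kcnk1 and Kcnk2 below it.

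Hcn2 encodes one of the 4 pore-forming HCN subunits. Its gene lies at chr10:79716634-79736108 on the plus strand (GRCm38), and essentially all of its counts went to the protein-coding transcript Hcn2-001. The stretch below shows the coding bases around its selectivity filter with the 3 codons of the filter in capitals. These and all sequences below are reference sequence from the GENCODE M21 transcripts (GRCm38), shown 5′ to 3′ because the filter is the feature that the pore-forming members have in common.
Hcn2, chr10:79728938-79728988, plus strand: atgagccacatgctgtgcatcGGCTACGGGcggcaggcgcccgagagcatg

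Hcn2 ranged over 155, 198 and 215 CPM (lowest, median and highest) in Fmr1-KO and over 144, 189.6 and 333 CPM in WT. The highest value, 333 CPM, was that of the shallow WT replicate 3, and the other 15 libraries lay between 144 and 224 CPM. Its means were 193 ± 19.98 CPM in Fmr1-KO, against 205 ± 56.2 CPM in WT (SD, n = 8 each), with a log2 fold change of −0.089 (SE 0.12, edgeR adjusted p = 0.896). The 95% interval of that fold change ran from −0.33 to 0.15, and the value was −0.0031 without WT replicates 3 and 6. A direction is therefore not given for Hcn2, whose sign also turned when WT replicate 3 alone was left out (0.038).

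Pex5l encodes TRIP8b, a cytoplasmic protein that binds the C-terminal tail of HCN subunits and controls their surface expression and their enrichment in distal dendrites of CA1 cells. It ranged over 581, 672 and 769.8 CPM in Fmr1-KO, against 474, 562 and 702 CPM in WT. Every Fmr1-KO library stood above the WT median, 4 stood above the highest WT library, and 5 WT libraries lay below the lowest Fmr1-KO one. The means were 669 ± 69.8 CPM in Fmr1-KO, against 567 ± 73.2 CPM in WT (SD, n = 8 each), a log2 fold change of 0.24 (SE 0.089) that did not pass the adjustment (unadjusted p = 0.0138, adjusted p = 0.581 by edgeR). Without WT replicates 3 and 6 the fold change was 0.19 (unadjusted p = 0.0338), in a fit where 7.32% of 11866 genes had an unadjusted p under 0.05.

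Levels of different genes were compared per kilobase of effective transcript length. On that scale Pex5l was the most abundant member, with 287 ± 28.5 CPM per kilobase in Fmr1-KO and 245 ± 40.8 in WT, and it lay above every other member in all 16 libraries. Its level over that of Hcn2 was 4.45 ± 0.68 in Fmr1-KO and 3.81 ± 1.18 in WT, with overlapping libraries. Among the other HCN subunits, Hcn3 reached 7.72 CPM per kilobase in Fmr1-KO and 13.2 in WT (13.1 without WT replicates 3 and 6). Hcn4 reached 1.51 in Fmr1-KO and 8.42 in WT, but 0.47 in WT without those replicates. The Hcn4 medians were 0.30 in Fmr1-KO and 0.065 in WT.

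Kcnq3 encodes a subunit of the neuronal M-type channel. It ranged over 570.0, 769 and 890.2 CPM in Fmr1-KO, against 377, 617 and 796 CPM in WT. The Fmr1-KO values lay above the WT median in 7 of 8 libraries, 3 of them above every WT library, and the lowest value was that of WT replicate 3. The means of Kcnq3 were 752 ± 105 CPM in Fmr1-KO, against 632 ± 145 CPM in WT (SD, n = 8 each), a log2 fold change of 0.25 (SE 0.13, unadjusted p = 0.0642, adjusted p = 0.652 by edgeR). The fold change was 0.16 (SE 0.11, unadjusted p = 0.133) without WT replicates 3 and 6. Per kilobase, Kcnq5, another M-type subunit, stood at 14.9 ± 3.87 in Fmr1-KO and 12.8 ± 1.87 in WT.

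The 3 GIRK subunits have the closest pore sequences among the members. Kcnj3 (GIRK1) reaches the cell surface only with a partner subunit, Kcnj6 (GIRK2) can form channels by itself, and Kcnj9 (GIRK3) carries a signal for sorting through endosomes. Of the 51 coding bases around the filter, 43 were identical between Kcnj6 and Kcnj9, 41 between Kcnj3 and Kcnj6, and 41 between Kcnj3 and Kcnj9. Capitals again mark the 3 codons of the filter.
Kcnj3, chr2:55437612-55437662, plus strand: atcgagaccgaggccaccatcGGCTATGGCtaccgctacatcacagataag
Kcnj6, chr16:94832756-94832806, minus strand: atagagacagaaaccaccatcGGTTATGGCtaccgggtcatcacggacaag
Kcnj9, chr1:172326163-172326213, minus strand: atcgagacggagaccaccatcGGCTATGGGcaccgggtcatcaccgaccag

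Despite that likeness the longest exact stretch shared by any transcripts of Kcnj6 and Kcnj9 was 17 bases, and over the 28 pairs of members the longest shared stretch was 11 to 17 bases. The read length is not given in the sources used here.

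Of the 3 GIRK genes, Kcnj9 had an unadjusted p under 0.05 by edgeR over all 16 libraries. It ranged over 85.9, 105 and 122 CPM in Fmr1-KO, against 56.4, 78.1 and 111 CPM in WT. Of the WT libraries, 7 lay below the lowest Fmr1-KO library, and WT replicate 8 with 111 CPM was the exception. The means were 104 ± 12.7 CPM in Fmr1-KO, against 79.7 ± 15.2 CPM in WT (SD, n = 8 each), a log2 fold change of 0.37 (SE 0.12), or 1.29-fold, which did not pass the adjustment (unadjusted p = 0.00512, adjusted p = 0.541 by edgeR). It had the 109th smallest p of the 11515 genes. Kcnj9 differed by 0.31 (unadjusted p = 0.0125) without WT replicates 3 and 6.

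Kcnj6 ranged over 97.4, 127 and 149.8 CPM in Fmr1-KO, against 46.8, 101 and 137 CPM in WT, with its lowest value in WT replicate 3. Its means were 122 ± 18.4 CPM in Fmr1-KO, against 98.1 ± 29.4 CPM in WT, a log2 fold change of 0.31 (SE 0.16, unadjusted p = 0.0650, adjusted p = 0.654 by edgeR), and 0.21 (unadjusted p = 0.119) without WT replicates 3 and 6. Kcnj3 ranged over 166, 201 and 229.5 CPM in Fmr1-KO, against 76.8, 192 and 222 CPM in WT. Its lowest library was WT replicate 3. The Kcnj3 means were 201 ± 19.2 CPM in Fmr1-KO, against 176 ± 49.1 CPM in WT, a log2 fold change of 0.19 (SE 0.15, edgeR adjusted p = 0.775) that was 0.089 without that library.

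The make-up of the GIRK family per length was close in both genotypes. Kcnj3 took 37.7 ± 5.01% of the summed level of Kcnj3, Kcnj6 and Kcnj9 in Fmr1-KO and 40.7 ± 3.21% in WT. Kcnj6 took 40.2 ± 5.003% in Fmr1-KO and 37.4 ± 4.16% in WT, and Kcnj9 took 22.1 ± 4.43% in Fmr1-KO and 21.9 ± 4.96% in WT. These shares differed between genotypes by less than the spread between libraries. Kcnj5, the subunit known from heart, was at most 0.500 CPM per kilobase in Fmr1-KO and was listed at 0 in all 8 WT libraries.

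Two-pore channel subunits carry a pair of pore loops each, so 2 stretches are shown per gene. Kcnk1 encodes TWIK-1, a weakly conducting leak channel, and Kcnk2 encodes TREK-1, a leak channel opened by membrane stretch, lipids and anaesthetics and closed by Gq signalling. The filter codons of the first Kcnk1 pore are those of Kcnj3. Among the 4 stretches, the second ones of Kcnk1 and Kcnk2 were the most alike across genes, with 32 of 51 bases identical, and the first and second of Kcnk2 had the same 3 filter codons.
Kcnk1 first pore, chr8:125995793-126025040, plus strand, across an intron: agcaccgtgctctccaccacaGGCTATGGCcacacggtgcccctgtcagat
Kcnk1 second pore, chr8:126025314-126025364, plus strand: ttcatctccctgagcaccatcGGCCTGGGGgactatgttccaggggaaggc
Kcnk2 first pore, chr1:189258870-189295615, minus strand, across an intron: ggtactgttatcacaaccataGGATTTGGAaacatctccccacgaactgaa
Kcnk2 second pore, chr1:189243019-189256610, minus strand, across an intron: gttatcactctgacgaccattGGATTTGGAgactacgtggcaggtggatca

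Kcnk2 had the smallest p among the members by edgeR over all 16 libraries. It ranged over 45.0, 53.5 and 63.6 CPM in Fmr1-KO, against 54.2, 68.3 and 91.3 CPM in WT. Of the Fmr1-KO libraries 5 lay below the lowest WT library, and of the WT libraries 5 lay above the highest Fmr1-KO one. The means were 53.7 ± 6.83 CPM in Fmr1-KO, against 70.1 ± 13.1 CPM in WT (SD, n = 8 each), a log2 fold change of −0.39 (SE 0.12), or 1.31-fold higher in WT, which did not pass the adjustment (unadjusted p = 0.00482, adjusted p = 0.529 by edgeR). It was −0.36 (unadjusted p = 0.00693) without WT replicates 3 and 6.

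Kcnk1 ranged over 37.3, 49.5 and 60.0 CPM in Fmr1-KO, against 40.6, 63.2 and 102 CPM in WT. All 8 Fmr1-KO libraries lay below the WT median, but 6 lay above the lowest WT library, and the highest value of 102 CPM was again that of WT replicate 3. The means were 48.4 ± 8.22 CPM in Fmr1-KO, against 64.5 ± 20.2 CPM in WT (SD, n = 8 each), a log2 fold change of −0.39 (SE 0.17, unadjusted p = 0.0325, adjusted p = 0.622 by edgeR). Without WT replicates 3 and 6 it was −0.25 (unadjusted p = 0.126). Per kilobase, Kcnk1 took 50.7 ± 6.78% of both genes together in Fmr1-KO and 50.9 ± 6.17% in WT.

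Kcnk1 and Kcnk2 are also known from astrocytes. All 5 astrocyte markers tested had negative fold changes too, with a median of −0.38, and their summed level ran from 389.7 to 486 CPM in Fmr1-KO, against 358 to 1376 CPM in WT, the top value being WT replicate 3. Without WT replicates 3 and 6 that median was −0.082, and Kcnk1 differed by −0.25 and Kcnk2 by −0.36 there. The 8 endothelial and pericyte markers, all with negative fold changes and a median of −0.59 (−0.35 without that pair), ranged over 66.5 to 155 CPM in Fmr1-KO, against 96.5 to 424 CPM in WT. The 6 oligodendrocyte markers (median −0.38, −0.37 without the pair) summed to 222 to 435 CPM in Fmr1-KO, against 239 to 648 CPM in WT, and the 6 microglial ones (median −0.34, −0.26 without the pair) to 107 to 214 CPM in Fmr1-KO, against 139.8 to 316 CPM in WT. None of these markers was at 0 in all libraries or passed the adjusted threshold, and their part in the values of Kcnk1 and Kcnk2 was not tested. In bulk tissue fewer cells of a type and less RNA per cell cannot be told apart.

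**Figure D2:**
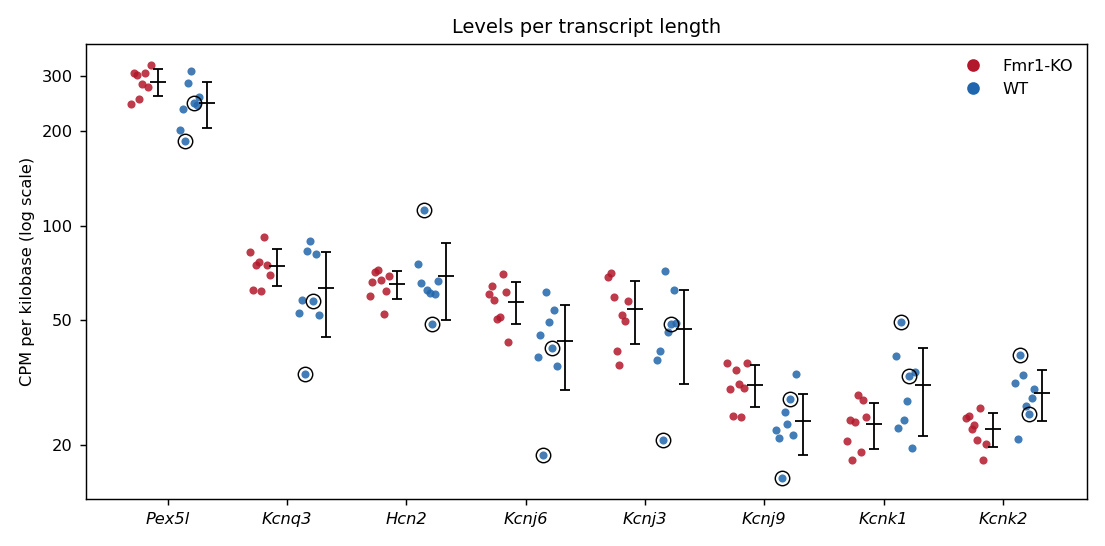
Level of each gene in CPM per kilobase of effective transcript length on a log axis, one point per library, Fmr1-KO in red on the left and WT in blue on the right of each pair, with mean ± SD (n = 8 each) and rings around WT replicates 3 and 6. Pex5l stands above the other genes in every library, and Kcnj9, Kcnk1 and Kcnk2 are the lowest in both genotypes.

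The order of the members by mean level per kilobase in Fmr1-KO was Pex5l, Kcnq3 (74.2 ± 9.94), Hcn2 (65.0 ± 6.72), Kcnj6 (57.2 ± 8.79), Kcnj3 (54.3 ± 12.4), Kcnj9 (31.1 ± 4.73), Kcnk1 (23.4 ± 3.95) and Kcnk2 (22.5 ± 2.77). In WT it was Pex5l, Hcn2 (69.1 ± 18.9), Kcnq3 (63.4 ± 19.2), Kcnj3 (46.9 ± 15.5), Kcnj6 (42.8 ± 12.9), Kcnk1 (31.2 ± 9.73), Kcnk2 (29.4 ± 5.45) and Kcnj9 (23.9 ± 5.31). Neighbours such as Kcnq3 and Hcn2, Kcnj6 and Kcnj3, or Kcnk1 and Kcnk2 differed by less than their spread in both genotypes, whereas Kcnj9 lay below Kcnj3 in all 16 libraries. Kcnj9 stood above Kcnk1 in 8 of 8 Fmr1-KO libraries and in 2 of 8 WT libraries. On the deposited TPM scale Kcnj9 averaged 53.5 ± 4.47 in Fmr1-KO and 33.2 ± 19.3 in WT, and Kcnk2 39.1 ± 6.25 in Fmr1-KO and 40.1 ± 19.9 in WT. Transcripts under 250 bases held 12.8% to 30.1% of all TPM in Fmr1-KO libraries and 12.8% to 75.6% in WT libraries, which lowers every other TPM value in the libraries where that share is high.

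The spread between libraries was smaller in Fmr1-KO than in WT for all 8 members. The coefficient of variation of CPM ran from 9.54% (Kcnj3) to 16.97% (Kcnk1) in Fmr1-KO and from 12.9% (Pex5l) to 31.3% (Kcnk1) in WT. With WT replicates 3 and 6 left out, that of Hcn2 was 8.66% in WT, below its 10.4% in Fmr1-KO, while that of Kcnj3 was 17.2% in WT. No test of this difference in spread was made. It was not compared with the spread over all genes tested either, so it cannot be read as particular to these 8 genes.

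The labels carry a letter, B or D, and a number, whose meanings they do not give, and each genotype had 4 libraries of each letter. In each genotype 3 of its 5 numbers stood on both a letter B and a letter D library. With the libraries of a shared number summed, leaving 5 against 5, the log2 fold change was 0.31 (unadjusted p = 0.0253) for Kcnj9, −0.39 (unadjusted p = 0.00950) for Kcnk2, −0.31 (unadjusted p = 0.0460) for Kcnk1 and 0.18 (unadjusted p = 0.0607) for Pex5l by edgeR, and no member passed the adjustment. Both shallow WT libraries were letter B. Among letter B libraries 7.5% of 11738 genes and among letter D libraries 4.49% of 11519 genes had an unadjusted p under 0.05. Kcnj9 differed by 0.30 in letter B and 0.44 in letter D libraries, Pex5l by 0.30 and 0.19, and Kcnk2 by −0.53 and −0.24. Among the members only Hcn2 changed sign between the letters, with −0.23 in letter B and 0.064 in letter D libraries.

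The fold changes of Kcnj6, Kcnq3, Kcnj3 and Kcnk1 were close to 0 in the letter D libraries. Kcnj6 differed by 0.72 (SE 0.22) in letter B and by 0.021 (SE 0.15) in letter D libraries, Kcnq3 by 0.51 and 0.039, Kcnj3 by 0.42 and 0.0033, and Kcnk1 by −0.70 and −0.039. Kcnj6 averaged 124 ± 16.1 CPM in letter B and 121 ± 22.9 CPM in letter D libraries of Fmr1-KO, against 76.5 ± 22.8 and 119.6 ± 16.1 CPM in those of WT (SD, n = 4 each). Kcnq3 averaged 755 ± 125 CPM in letter B and 750.1 ± 101 CPM in letter D libraries of Fmr1-KO, against 532 ± 114 and 732 ± 97.6 CPM in those of WT, and Kcnk1 49.4 ± 11.2 and 47.4 ± 5.39 CPM in Fmr1-KO, against 80.4 ± 15.2 and 48.6 ± 6.88 CPM in WT. For these 3 genes the WT means differed more between the letters than the Fmr1-KO means did. The difference between the letters in the effect of genotype had an unadjusted p of 0.0140 for Kcnj6, 0.0461 for Kcnq3 and 0.0250 for Kcnk1, each with an adjusted p of 0.907 by edgeR. No gene passed that adjustment, and 618 (5.37%) of the genes had an unadjusted p under 0.05. Left without WT replicates 3 and 6, WT keeps only replicates 1 and 8 in letter B. In that fit the unadjusted p was 0.0127 for Kcnj6, 0.0499 for Kcnq3 and 0.0602 for Kcnk1 by edgeR, beside 5.43% of 11866 genes. With the number as a random block in limma-voom it was 0.00935 for Kcnj6, 0.0367 for Kcnq3 and 0.0310 for Kcnk1, each with an adjusted p of 0.921.

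**Figure D3:**
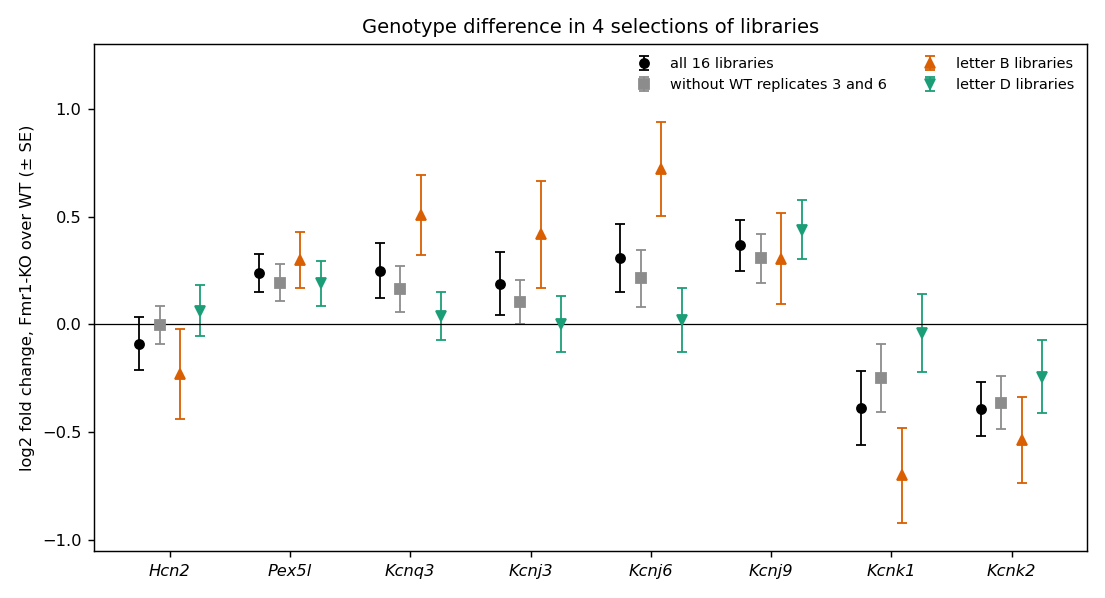
Log2 fold change of Fmr1-KO over WT with its standard error for each gene, with all 16 libraries, without WT replicates 3 and 6, and within the libraries of letter B or of letter D. Pex5l and Kcnj9 stay above 0 and Kcnk2 below 0 in all 4 selections, and for Kcnq3, Kcnj3, Kcnj6 and Kcnk1 the letter D value is close to 0.

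Libraries also differed in the balance of long and short genes. Transcripts averaged 11346 bases for Kcnq3 and 2620 bases for Kcnj6. The median log2 level of long genes (over 4409 bases) minus that of short genes (under 1955 bases), with 2879 genes each, ran from −0.55 to 0.25 in Fmr1-KO and from −0.48 to 0.17 in WT. In WT this balance averaged −0.20 in letter B and 0.022 in letter D libraries, against 0.036 and 0.065 in those of Fmr1-KO. The letter and the balance were not tested apart. The 4 lowest libraries were Fmr1-KO replicate 5 (−0.55) and WT replicates 8 (−0.48), 1 (−0.44) and 2 (−0.26). In them Kcnq3 stood at 570.0 CPM in Fmr1-KO replicate 5 and at 578, 530.1 and 589 CPM in those WT libraries, the lowest Kcnq3 values apart from WT replicate 3. Kcnj6 stood at 100.2 CPM in Fmr1-KO replicate 5 and at 79.2, 77.8 and 100.1 CPM in the same WT libraries.

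With that balance as a covariate, Kcnq3 differed by 0.16 (unadjusted p = 0.175), and by 0.031 (unadjusted p = 0.607) without WT replicates 3 and 6 as well. Kcnj6 differed by 0.20 and 0.070 in those fits, Kcnj3 by 0.13 and 0.0066, and Kcnk1 by −0.32 and −0.11. Kcnj9 and Kcnk2 had the smallest p-values of the 8 genes in both fits. Kcnj9 had 0.43 (unadjusted p = 0.000867, adjusted p = 0.415) and 0.38 (unadjusted p = 0.00188, adjusted p = 0.480), and Kcnk2 had −0.38 (unadjusted p = 0.00648) and −0.34 (unadjusted p = 0.0111) by edgeR. Pex5l had 0.21 (unadjusted p = 0.0229) and 0.14 (unadjusted p = 0.0586).

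**Figure D4:**
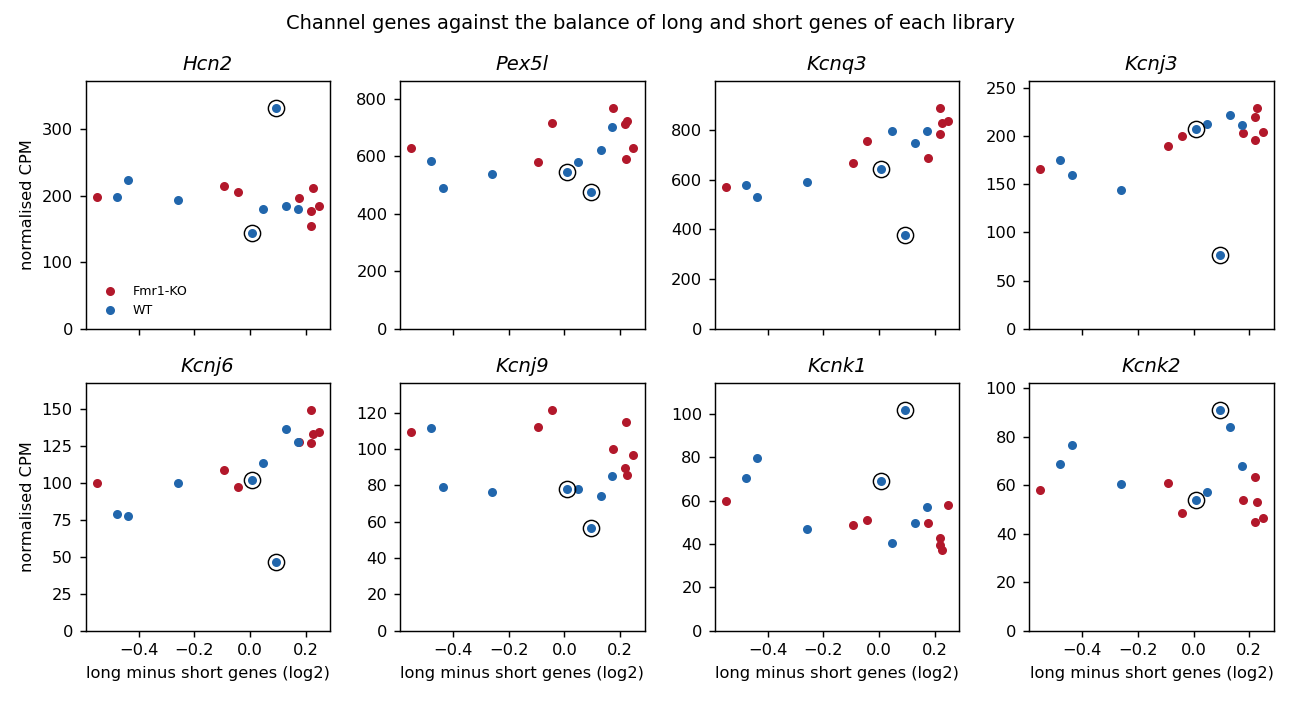
Normalised CPM of each gene against the balance of each library, the median log2 level of long genes minus that of short genes, with Fmr1-KO in red, WT in blue and rings around WT replicates 3 and 6. Kcnq3 and Kcnj6 are low in the libraries at the left, which are 1 Fmr1-KO and 3 WT libraries, whereas Kcnj9 reaches 109 and 111 CPM in 2 of them.

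The deposited tables divide the counts of the 8 genes over 37 transcripts, of which 7 had no count in any library and 19 passed the filter of a transcript-level fit. None of the 19 passed an adjusted p of 0.05 by edgeR (smallest 0.9999), where 0.00596% of 16772 transcripts did, and the smallest unadjusted p-values stood at Pex5l-002, Kcnj9-001, Kcnj6-201 and Kcnk1-201. Those 4 had an unadjusted p under 0.05, against 3.91% of all transcripts tested. Reads are assigned to overlapping transcripts by a model, so these values are less certain than the gene sums.

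Most Pex5l transcripts begin in an upstream or a downstream group of starts, and the most upstream start of each group lies 60187 bases from that of the other. The first coding bases differ between the groups. The N-terminal end is the part of TRIP8b that is known to vary between its isoforms and to alter how it acts on HCN trafficking. The first 48 coding bases of the main transcript from each start are shown with the start codon in capitals. Up to the stop codon the coding sequences share their last 1687 bases, of 1704 in Pex5l-002 and 1848 in Pex5l-201.
Pex5l-002, upstream start, chr3:33015050-33142869, minus strand, across an intron: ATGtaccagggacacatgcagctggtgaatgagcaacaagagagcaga
Pex5l-201, downstream start, chr3:33082021-33082068, minus strand: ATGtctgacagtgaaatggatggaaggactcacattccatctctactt

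Pex5l-002 had 209 ± 38.4 CPM in Fmr1-KO, against 165 ± 26.5 CPM in WT (SD, n = 8 each), a log2 fold change of 0.35 (SE 0.13, unadjusted p = 0.0158). Pex5l-201 had 267 ± 59.5 CPM in Fmr1-KO, against 222 ± 56.8 CPM in WT, a log2 fold change of 0.26 (SE 0.17, unadjusted p = 0.138). The 4 transcripts of the upstream start, among them Pex5l-003 with a retained intron, summed to 349 ± 39.7 CPM in Fmr1-KO, against 278 ± 44.5 CPM in WT. Those of the downstream start summed to 319 ± 57.1 CPM in Fmr1-KO, against 276 ± 47.5 CPM in WT. The upstream start held 49.8 ± 5.23% of Pex5l counts in Fmr1-KO and 46.8 ± 4.94% in WT, a difference within the spread between libraries (two-sided exact permutation p = 0.261, adjusted over the 2 shares tested 0.261).

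Kcnj6 has 2 main coding transcripts that share their first 1241 coding bases and then end differently. The last 48 coding bases are shown with the stop codon in capitals, since the C-terminal tail is where GIRK2 variants are known to differ. The coding length was 1245 bases in Kcnj6-201 and 1278 in Kcnj6-202.
Kcnj6-201, chr16:94749266-94762440, minus strand, across an intron: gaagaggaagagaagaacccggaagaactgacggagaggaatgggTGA
Kcnj6-202, chr16:94762360-94762407, minus strand: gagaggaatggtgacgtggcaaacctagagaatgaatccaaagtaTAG

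Kcnj6-201 had 51.3 ± 12.6 CPM in Fmr1-KO, against 30.2 ± 15.3 CPM in WT (SD, n = 8 each), a log2 fold change of 0.74 (SE 0.31, unadjusted p = 0.0298), and 0.51 (unadjusted p = 0.0524) without WT replicates 3 and 6. Kcnj6-202 had 76.9 ± 17.7 CPM in Fmr1-KO, against 72.7 ± 26.6 CPM in WT, a log2 fold change of 0.083 (SE 0.22). As a share of Kcnj6 counts, Kcnj6-201 took 40.0 ± 9.05% in Fmr1-KO and 29.1 ± 12.7% in WT. That difference did not pass either (two-sided exact permutation p = 0.0702, adjusted over the 2 shares tested 0.140, and unadjusted 0.265 without WT replicates 3 and 6). Both shares were chosen after their values were seen.

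**Figure D5:**
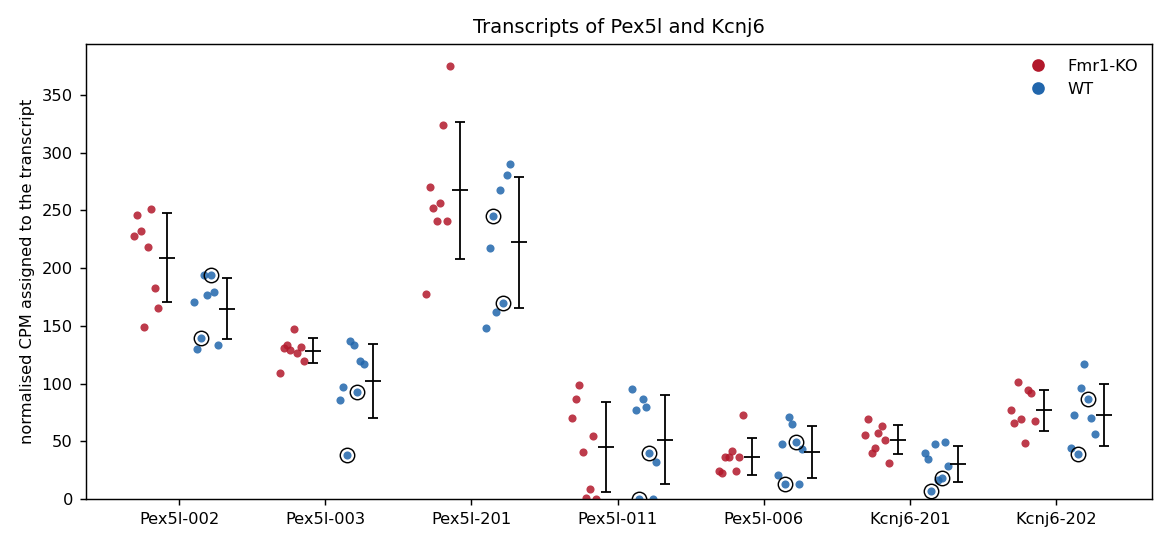
Normalised CPM assigned to the 5 most abundant Pex5l transcripts and the 2 main Kcnj6 transcripts, one point per library, Fmr1-KO in red on the left and WT in blue on the right of each pair, with mean ± SD (n = 8 each) and rings around WT replicates 3 and 6. Pex5l-002 and Kcnj6-201 have higher means in Fmr1-KO with overlapping libraries, and Pex5l-011 ranges from 0 to 98.9 CPM.

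The other Kcnj9 transcripts added little, and those of Kcnk2 could not be read apart. Kcnj9-001 held most counts of its gene and had 101 ± 11.9 CPM in Fmr1-KO, against 76.1 ± 19.7 CPM in WT (log2 fold change 0.40, SE 0.15, unadjusted p = 0.0168). Kcnk1-201, the single Kcnk1 transcript, had −0.39 (SE 0.18, unadjusted p = 0.0449). The counts of Kcnk2 were spread over several transcripts that were at 0 in some libraries. Kcnk2-003 had 16.3 ± 13.8 CPM in Fmr1-KO, against 28.3 ± 17.6 CPM in WT (log2 fold change −0.80, SE 0.76, unadjusted p = 0.308), Kcnk2-201 had −0.091 (SE 1.14), Kcnk2-005 −0.24 (SE 1.17) and Kcnk2-001 −0.45 (SE 0.65). Kcnj3-001 held most Kcnj3 counts and had 0.25 (SE 0.16, unadjusted p = 0.136), Kcnj3-201 had 0.31 (SE 0.56) and Kcnj3-002 −0.74 (SE 1.18). For single transcripts, Hcn2-001 had −0.074 (SE 0.13), Kcnq3-001 0.25 (SE 0.14), Pex5l-003 0.32 (SE 0.19), Pex5l-006 −0.14 (SE 0.37), Pex5l-011 −0.21 (SE 0.96) and Pex5l-012 −0.048 (SE 0.66).

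Among 62 related genes, 45 were tested and none passed the adjusted threshold by edgeR. Of those tested 29 had positive and 16 negative fold changes with a median of 0.096 (0.063 without WT replicates 3 and 6), and 6 had an unadjusted p under 0.05 with higher means in Fmr1-KO, which 3.61% of all genes did. No related gene had such a p with a lower mean, against 4.28% of all genes. Of the HCN subunits and partners 3 of 4 were positive, and Nedd4l, a ubiquitin ligase, had 279 ± 38.5 CPM in Fmr1-KO, against 237 ± 25.05 CPM in WT (log2 fold change 0.24, unadjusted p = 0.0204). Of the M-type subunits and regulators 7 of 8 were positive, with Plcb1, the phospholipase downstream of Gq-coupled receptors, at 0.22 (unadjusted p = 0.0370). Of the GIRK receptors and regulators 11 of 19 were positive. In that group Gng2, a G protein gamma subunit, had 0.21 (unadjusted p = 0.0307) and Rgs7bp, an anchor of RGS proteins, 0.22 (unadjusted p = 0.0316). Without WT replicates 3 and 6 their unadjusted p-values were 0.0517 and 0.0829 by edgeR, while those of Nedd4l and Plcb1 stayed under 0.05. The GABA-B receptor subunits Gabbr1 and Gabbr2 had 0.029 and 0.035 over all 16 libraries.

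Of 16 other two-pore and leak channel genes 8 were tested, and 6 of them were positive. Kcnk12, a two-pore subunit that gives no current by itself in expression systems, had 26.7 ± 5.52 CPM in Fmr1-KO, against 14.1 ± 5.93 CPM in WT (SD, n = 8 each). Its log2 fold change was 0.88 (SE 0.25, unadjusted p = 0.00220, adjusted p = 0.515 by edgeR), and 0.75 (unadjusted p = 0.00110) without WT replicates 3 and 6. That sign is opposite to those of Kcnk1 and Kcnk2. Of 10 other inward rectifiers 6 were tested, 2 with positive and 4 with negative fold changes, and Kcnj2 had 20.6 ± 8.01 CPM in Fmr1-KO, against 11.8 ± 7.07 CPM in WT (log2 fold change 0.82, SE 0.34, unadjusted p = 0.0243).

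Genes whose levels followed each member most closely across libraries were found by Pearson's r of log2 CPM, with the mean of each genotype removed, over the 14 libraries without WT replicates 3 and 6. For Kcnq3 they were Ppp1r9a and Kif1b (0.96 each), and for Kcnj6 Arhgef12 (0.96). Hcn2 was followed by Rundc3a (0.89) and Fastkd3 (0.88), Pex5l by C1ql3 and Nav3 (0.87 each), and Kcnj3 by Prkca and Adcy1 (0.89 each). The values were lower for Kcnj9, with Rell1 and Wwox (0.85 each), for Kcnk1, with Cotl1 (0.86) and 2810459M11Rik (0.80), and for Kcnk2, with Ptpn23 and Tbrg4 (0.82 each). All points share the depth and the long-to-short balance of their library, and these are the highest values among all genes tested.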

How the data were processed

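Total RNA of the CA1 subfield was extracted with Promega's Maxwell 16 LEV kit, and libraries ran on the Illumina HiSeq platform, per the labels' protocols. FastQC, cutadapt, kallisto and DESeq2 appear, without versions, in the submitters' processing notes. The genome build, transcript index and strand setting are not given in the sources used. The authors deposited 1 table per library with estimated counts, TPM (scaled by effective length within a library), length and effective length of 111706 transcripts. Estimated counts, which can be fractional, were summed by symbol and rounded. Two-sided tests used edgeR 4.0.16 (TMM, filterByExpr with a minimum count of 10, quasi-likelihood, no covariate) under R 4.3.3, and p-values were adjusted by Benjamini-Hochberg over all features tested, after a check on simulated counts. CPM per kilobase divides each transcript's TMM-scaled CPM by its effective length. Counts of the members ran from 74 to 2485 per library in Fmr1-KO and from 18 to 2130 in WT.

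Genotype was taken from the labels. Replicate numbers follow label order and pair nothing across genotypes. Alternatives were DESeq2 1.42.0 and its size factors, library totals, other filters, limma 3.58.1 with voom quality weights, log2(TPM + 1) and log2(TPM + 0.1), the letter as a covariate or a split, and omission of WT replicates 3 and 6. Leaving out each library, the long-to-short balance and the number shared by libraries were added after seeing the data. Shares were compared by exact permutation in SciPy 1.17.1. Named are all members, Fmr1, related genes with an unadjusted p under 0.05, the genes most like each member (up to 2, one of them not reported here), and the member transcripts that passed the filter. Hcn3, Hcn4, Kcnq5, Kcnj5, Gabbr1, Gabbr2 and a few markers were named after their values were seen. Members, related genes and markers were chosen with earlier results of these data known. Sequences and positions are from GENCODE M21 (GRCm38), matched by identifier for 37 of 37 transcripts, of which 32 had the deposited length.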

Additional observations from a re-analysis of the deposited data

Results flagged for a closer look

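Of the 16 groups formed by the 8 genes in each genotype, 1 held a library set apart from the rest. Hcn2 in WT replicate 3 stood at 333 CPM, and its gap to the next WT library was 0.576 of the whole WT range, above Dixon's 95% critical ratio of 0.526 for 8 samples. Chance sets apart about 1 in 20 such groups. The library holds 878484 estimated counts.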

How the results depend on the processing

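None of the 8 genes passed the adjusted threshold under any alternative (smallest adjusted p = 0.146 over 258 values, with none given by DESeq2 for 6 members). With TPM values taken relative to the median of all genes, 260 of 264 fold changes kept their direction, though sizes moved. Settings other than the length balance, the shared number and single libraries left out ranged over 0.29 to 0.70 for Kcnj9, 0.19 to 0.58 for Pex5l, 0.039 to 0.61 for Kcnq3, 0.0033 to 0.58 for Kcnj3, 0.021 to 0.79 for Kcnj6, −0.70 to −0.039 for Kcnk1 and −0.53 to −0.048 for Kcnk2. In log2(TPM + 1) with no filter Kcnj9 had 0.70, Kcnk1 −0.047 and Kcnk2 −0.048. The 4 that reversed were all of Hcn2, at 0.064 in letter D libraries, 0.28 in log2(TPM + 1) with no filter, 0.050 with the length balance as a covariate and without WT replicates 3 and 6, and 0.038 without WT replicate 3. Leaving out each library in turn gave −0.13 to 0.038 for Hcn2 and 0.089 to 0.25 for Kcnj3, the lower value without WT replicate 3. TPM values are given relative to the median of all genes. That median shifted by 0.55, by 0.62 with a pseudocount of 0.1 and by 0.27 with no filter. Their directions were counted after this shift, while their p-values are of the unshifted values. Unshifted, Hcn2, Kcnk1 and Kcnk2 were above 0 in all 3 TPM settings, opposite to their main values. Transcripts Kcnk2-005 (0.59) and Pex5l-012 (0.99) reversed without WT replicates 3 and 6. Members with an unadjusted p under 0.05 numbered 4, against 1 in letter D libraries, 2 in each TPM setting, 2 with the length balance and without WT replicates 3 and 6, and 3 to 6 on leaving out each library. All genes past the threshold numbered 2, against 11 by DESeq2, 7 by limma-voom, 5 with no filter, 2 to 3 on leaving out each library, and 0 by edgeR in letter B libraries (880 at an unadjusted p under 0.05) and by limma in the 3 TPM settings (919, 699 and 1536). The cause of these shifts was not tested. No paired analysis was possible because the replicate numbers pair no libraries across genotypes. Over libraries that share a number within a genotype the consensus correlation was −0.012, and 3 members had an unadjusted p under 0.05 with them summed and 5 with the number as a random block in limma-voom. Standard errors ran from 0.089 for Pex5l to 0.17 for Kcnk1, and WT replicate 6 held 18 to 214 counts per member.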
